A study of Saccharomyces cerevisiae with 10 samples.

Results

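The standing transcript levels of the budding yeast strain with the skp1-11 allele were compared with those of 4 other strains that carry mutations in the same ubiquitin ligase. The skp1-11 strain contributed 2 of the 10 arrays of the series, 1 from a culture at 25 °C and 1 from a culture held at 35 °C for 1 h, and the other 8 arrays came from cdc53-1, cdc34-3, cdc4-3 and skp1-25 at the same temperatures. All 5 alleles are temperature-sensitive, and the medium was YPDA, which is rich in glucose and is supplemented with adenine. The labels give the strain as W303 for skp1-11, py175 for cdc53-1, py24 for cdc34-3, py187 for cdc4-3 and py1374 for skp1-25. The allele and the strain therefore change together and cannot be told apart. No strain with an intact ligase was analysed here, and the labels name no repeat cultures, so every p-value measures the spread between strains.

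The ligase is the SCF complex, in which the adaptor Skp1 joins the cullin Cdc53 to interchangeable F-box proteins that recruit substrates, and Cdc34 supplies ubiquitin. Its substrates include cell cycle inhibitors and regulators of nutrient uptake and amino acid synthesis. Skp1 also works outside the SCF, at the kinetochore and in assembly of the vacuolar proton pump.

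Levels were measured for 5449 genes on Affymetrix arrays and are given on a log2 scale, so a difference of 1 is a doubling. The log base was inferred from the values. Each array shows how well RNA hybridised to 1 probe set per gene, so a lower level can come from less RNA or from a sequence that differs from the probes, and these cannot be told apart here. No detection calls were used, and levels near the bottom of the range were not separated from background. Array medians lay between 10.96 and 11.14.

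A gene was called outside the range when both skp1-11 arrays lay above, or both below, all 8 other arrays. The gap is the distance from the nearer skp1-11 array to the nearest other array. By this rule 495 of 5449 genes were outside (9.08%), 219 above (4.02%) and 276 below (5.07%). Most gaps were small, with a median of 0.096, and 29 genes (0.532%) had a gap of at least 1, of which 8 were above and 21 below. Among the other strains, the same rule found 601 genes (11.0%) in cdc53-1, 189 (3.47%) in cdc34-3, 387 (7.10%) in cdc4-3 and 532 (9.76%) in skp1-25. The number of genes outside was thus not highest in skp1-11. Gaps of at least 1 were found for 27 genes (0.496%) in cdc53-1, 16 (0.294%) in cdc4-3, 2 (0.0367%) in skp1-25 and 1 (0.0184%) in cdc34-3. These counts were not tested against each other. Leaving out a strain cannot lower the skp1-11 counts, since fewer arrays then set the range. It gave from 287 genes above (without cdc53-1) to 338 (without cdc4-3). Below, it gave from 355 (without cdc34-3) to 436 (without cdc53-1).

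The level difference was then fitted with limma on 5 strain means, each the mean of the 25 °C and 35 °C arrays, as skp1-11 minus the mean of the other 4 strains. The spread of skp1-11 itself is unknown in this fit and was assumed to be like that of the other strains. With Benjamini-Hochberg adjustment over all 5449 genes, 20 genes passed at 0.05 (0.367%), 6 higher (0.110%) and 14 lower (0.257%) in skp1-11, and 336 had an unadjusted p below 0.05. All 20 were outside the range, which uses the same values and is no independent support. The same fit with cdc53-1 as the lone strain called 25 genes, 1 higher and 24 lower, and it called 0 genes for each of cdc34-3, cdc4-3 and skp1-25, with 81, 229 and 309 genes at an unadjusted p below 0.05. Leaving out cdc34-3 or skp1-25 reduced the 14 lower calls in skp1-11 to 7 or 8, respectively. With the 35 °C arrays alone, 8 of the 20 calls remained, and AIF1, ARG1, ECM12, HIS3, IMA5, PAU4, PAU18, PDR18, YGL262W, YGR126W, YJL218W and YNR071C lost theirs. With the 25 °C arrays alone, or with trend and robust moderation, 16 remained, and GIP1, IMA5, YGR126W and YNR071C lost theirs.

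**Figure D1:**
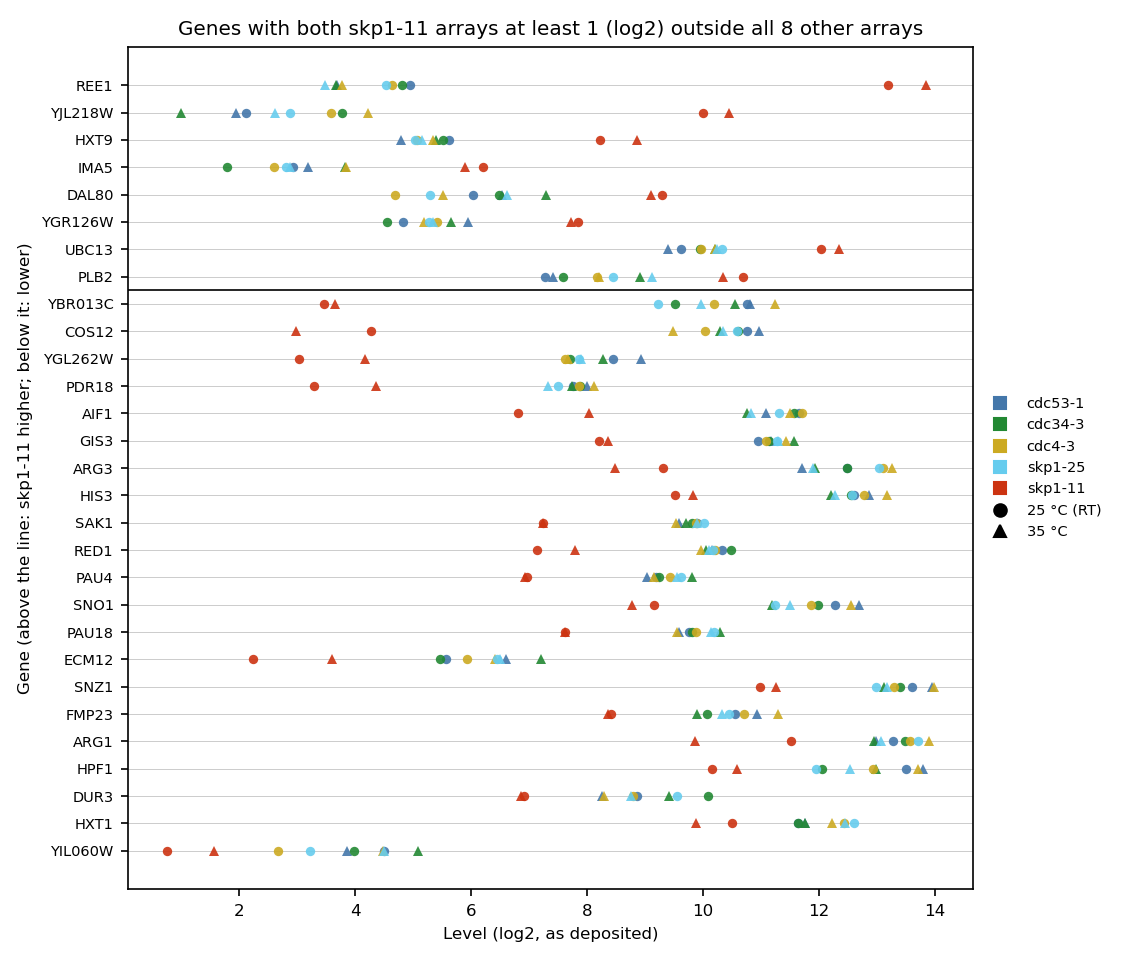
Level (log2) on each array for the 29 genes with a gap of at least 1, with skp1-11 and the 4 other strains marked separately at each temperature. For REE1 the skp1-11 arrays stand at 13.18 and 13.84 while the 8 other arrays lie between 3.49 and 4.95, and for COS12 they stand at 4.27 and 2.99 against 9.48 to 10.96.

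The levels were also compared between temperatures. All 29 genes with a gap of at least 1 differed in the same direction at 25 °C and at 35 °C, as the rule requires. A separate limma fit asked whether the difference at 35 °C departed from that at 25 °C, using the change within each strain. It called 0 genes, with a smallest adjusted p of 0.542 and 217 genes at an unadjusted p below 0.05. This does not show that the differences were equal. REE1 was 8.45 above the other strains at 25 °C and 10.18 above at 35 °C, ARG1 differed by -1.99 and -3.37, GIP1 by 0.97 and 2.02, and AIF1 by -4.742 and -3.001.

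**Figure D2:**
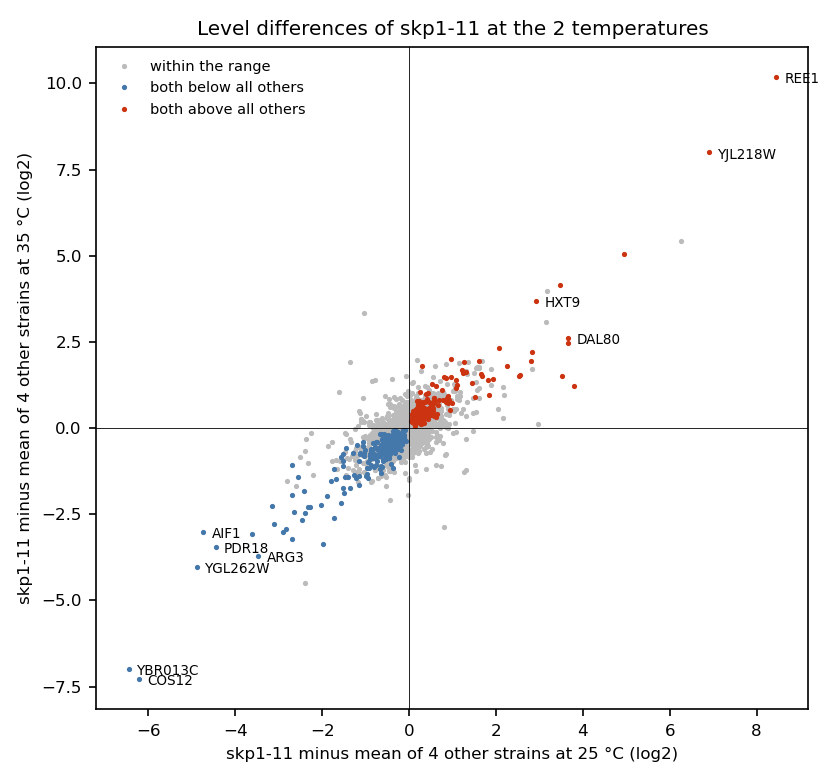
Difference between skp1-11 and the mean of the 4 other strains (log2) for each gene, at 25 °C on the horizontal axis and at 35 °C on the vertical axis, with genes outside the range of all other arrays in colour. REE1 lies at 8.45 and 10.18, and COS12 at -6.22 and -7.28.

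The strongest signal came from a block of genes at the left end of chromosome X. The outermost 4 measured genes there, HXT9, YJL218W, REE1 and IMA5, all lay above the other strains by gaps of at least 2.05. REE1, a gene linked to enolase regulation, read 13.18 at 25 °C and 13.84 at 35 °C in skp1-11, against a lowest, median and highest of 3.49, 4.16 and 4.95 in the 8 other arrays. The groups were separated by 8.23. The difference was 9.31 ± 0.16, measured against levels that were not separated from background (limma SE; others 4.20 ± 0.13, SD, n = 4 strains; adjusted p = 0.0001).

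YJL218W, which resembles acetyltransferase genes, read 9.999 and 10.447 in skp1-11, against 0.997, 2.76 and 4.22 as the lowest, median and highest of the other arrays. Its difference was 7.45 ± 0.69 (adjusted p = 0.0295), and the adjusted p was 0.0583 without cdc53-1, 0.114 without cdc34-3 and 0.131 without skp1-25. HXT9, a hexose transporter gene, read 8.23 and 8.86 against 4.80, 5.26 and 5.62, a difference of 3.30 ± 0.17 (adjusted p = 0.0064). The other arrays were low for both genes, and none came close to skp1-11. IMA5, an alpha-glucosidase gene, read 6.20 and 5.89 against 1.80, 2.90 and 3.84, a difference of 3.06 ± 0.20 (adjusted p = 0.0078). The IMA5 call was lost with strain as a random block, with trend and robust moderation and at each temperature alone, with an adjusted p of up to 0.332. The next gene inward, HXT8, differed by 0.23 and lay within the range. It read 3.84 and 3.68 in skp1-11 against 2.98 to 4.29 in the other arrays. These levels were not separated from background, so HXT8 cannot show where the block ends. Beyond HXT8, YJL213W was below the range, with 9.30 and 9.87 against 10.14 to 12.70 (difference -1.63, adjusted p = 0.809). HXT11, the closest relative of HXT9, lay within the range with a difference of -0.41. Levels of such near copies are uncertain, since their probe sets can share signal.

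A second block, at the right end of chromosome XIV, was low in skp1-11. It held 4 consecutive measured genes, PDR18, YNR071C, HXT17 and AIF1. AIF1, the yeast counterpart of an apoptosis-inducing factor, read 6.82 and 8.04 in skp1-11, and 10.76, 11.40 and 11.70 as the lowest, median and highest elsewhere. Its difference was -3.87 ± 0.23 (adjusted p = 0.0064). PDR18, an ABC transporter gene, read 3.30 and 4.36 against 7.33, 7.81 and 8.12, a difference of -3.94 ± 0.24 (adjusted p = 0.0064). The gaps to the nearest other array were 2.72 and 2.96. YNR071C, which resembles aldose epimerase genes, read 5.996 and 4.682 against 6.78, 7.46 and 8.12, with a difference of -2.17 ± 0.17 (adjusted p = 0.0169; 0.0915 without cdc34-3 and 0.0882 without skp1-25). HXT17, another hexose transporter gene, read 4.09 and 4.63 against 5.361, 5.65 and 6.001, and its difference of -1.31 ± 0.20 did not pass (adjusted p = 0.161). The 2 measured genes nearer the chromosome end, COS10 and YNR075C-A, were within the range with differences of 0.53 and -0.22, as were the next genes inward, BSC5 (0.16) and YNR068C (-0.31).

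At the left end of chromosome VII, the outermost 2 measured genes were low. COS12, a member of a subtelomeric family of membrane proteins, read 4.27 and 2.99 in skp1-11 against 9.48, 10.46 and 10.96 in the other arrays. Its difference was -6.75 ± 0.41 (adjusted p = 0.0064), with skp1-11 at levels that were not separated from background. YGL262W, of unknown function, read 3.03 and 4.17 against 7.63, 7.88 and 8.94, a difference of -4.45 ± 0.40 (adjusted p = 0.0263; 0.114 without cdc34-3 and 0.103 without skp1-25). The next gene, YPS5, was within the range (-1.10), and YGL258W-A beyond it was below by a small gap (-1.69, adjusted p = 0.781). Of the 8 COS genes measured, only COS12 passed the test, COS9 lay just below the range (-0.33, adjusted p = 0.909), and the other 6 lay within it. COS genes are close copies of each other, so their separate values are uncertain.

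**Figure D3:**
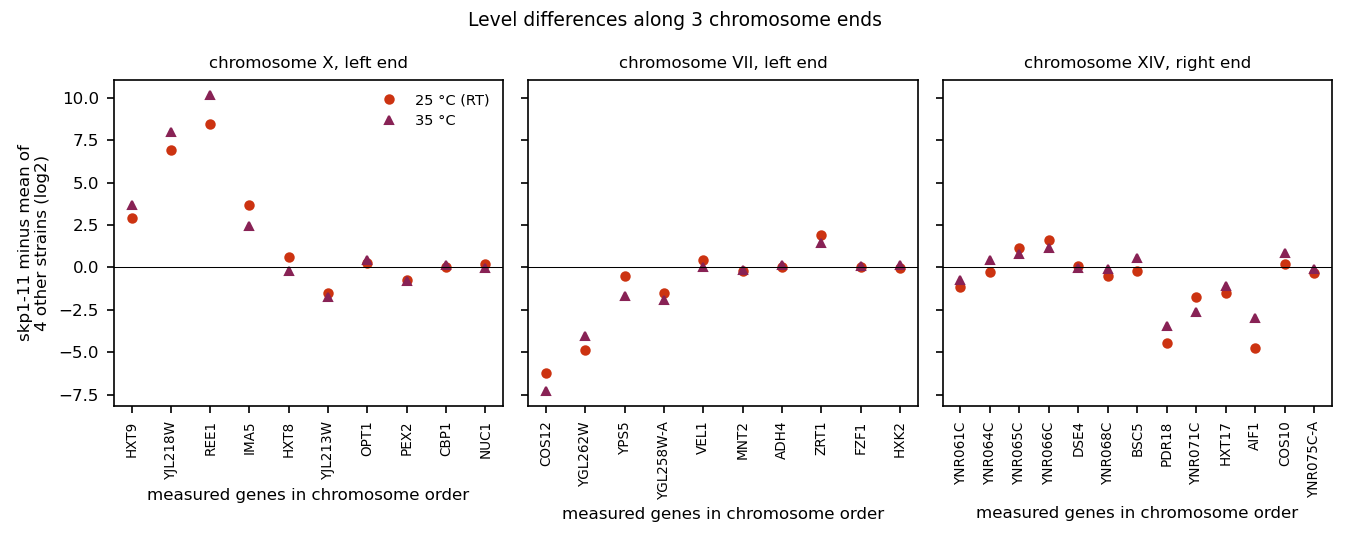
Difference between skp1-11 and the mean of the 4 other strains (log2), at 25 °C and at 35 °C, for measured genes in chromosome order at the left ends of X and VII and the right end of XIV. The outermost 4 genes of X are raised at both temperatures, with REE1 at 8.45 and 10.18 and IMA5 at 3.66 and 2.46, and COS12 on VII and PDR18 on XIV are low at both, at -6.22 and -7.28 and at -4.45 and -3.44.

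A pair of seripauperin genes, PAU18 and PAU4, near opposite ends of chromosome XII, were also low. PAU18, second from the left end among measured genes, read 7.63 and 7.61 in skp1-11 against 9.56, 9.85 and 10.29, a difference of -2.28 ± 0.23 (adjusted p = 0.0414, and from 0.0658 to 0.157 with any 1 of the other strains left out). PAU4, second from the right end, read 6.97 and 6.93 against 9.03, 9.34 and 9.80, a difference of -2.43 ± 0.22 (adjusted p = 0.0263; 0.114 without cdc34-3, 0.102 without cdc4-3 and 0.0882 without skp1-25). The genes of this family are so alike that the probe sets may not separate them. A pair of other members lay above the range, PAU14 (0.70, adjusted p = 0.330) and PAU9 (0.47, adjusted p = 0.733), so the family had no common direction.

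Neighbouring genes outside the range on the same side were found in 31 runs with 72 genes in all. Of the 29 genes with a gap of at least 1, 13 were in such runs. The number of runs that random placement would give was not computed, so these counts are description only. Only the blocks on X, XIV and VII and the gene cluster on XIII described below had a gap of at least 1 in more than 1 gene. Levels of whole chromosomes did not differ much, with median differences from -0.0851 on III to 0.0241 on XV.

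The remaining called genes were not part of these blocks. YBR013C, of unknown function, read 3.47 and 3.65 in skp1-11 against 9.22, 10.37 and 11.25 elsewhere, a difference of -6.72 ± 0.50 (adjusted p = 0.0130, and 0.0602 without cdc34-3). SAK1, which encodes a kinase that activates the glucose-repression kinase Snf1, read 7.25 and 7.24 against 9.53, 9.84 and 10.02 (-2.54 ± 0.15, adjusted p = 0.0064). In both genes the skp1-11 arrays agreed closely with each other, but the YBR013C levels in skp1-11 were not separated from background. Lying apart from all 8 others is what the range rule requires. RED1, a gene for a protein of the meiotic chromosome axis, read 7.14 and 7.80 against 9.96, 10.16 and 10.48 (-2.71 ± 0.14, adjusted p = 0.0064). GIS3, of unknown function, read 8.21 and 8.36 against 10.94, 11.22 and 11.57 (-2.95 ± 0.16, adjusted p = 0.0064), and its neighbour NYV1 lay just below the range (-0.51, adjusted p = 0.885). ECM12, of uncertain function, read 2.24 and 3.61 against 5.46, 6.43 and 7.21 (-3.35 ± 0.19, adjusted p = 0.0064). Of the 16 early meiosis genes measured, RED1 alone lay outside the range. Differences were under 0 for 13 of the 16, against 2674 of 5449 over all genes, and the list's median was -0.27 against 0.004. The lowest difference of the list, -3.44, was that of IME4, an inducer of meiosis, which lay within the range.

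Among called genes that were higher, YGR126W, of unknown function, read 7.85 and 7.73 in skp1-11 against 4.55, 5.31 and 5.95 elsewhere, a difference of 2.51 ± 0.16 (adjusted p = 0.0064). This call was lost with trend and robust moderation and at each temperature alone, with an adjusted p of up to 0.222. GIP1, a meiotic partner of the phosphatase Glc7, read 8.42 and 9.26 against 7.17, 7.31 and 7.65 (1.49 ± 0.14, adjusted p = 0.0309, and from 0.0882 to 0.159 with any 1 of the other strains left out). GIP1 sits beside a pair of genes on chromosome II that lay on the other side of the range. These were ZTA1, a quinone reductase gene (-0.93, adjusted p = 0.306), and FMP23, a gene of a mitochondrial protein, at 8.41 and 8.37 against 9.89, 10.50 and 11.30 (-2.14, adjusted p = 0.271).

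Several genes with wide gaps did not pass the test. UBC13, which encodes a ubiquitin-conjugating enzyme of DNA damage tolerance, read 12.03 and 12.35 in skp1-11 against 9.39, 10.08 and 10.32 (2.20 ± 0.31, adjusted p = 0.125, and 0.0364 without cdc53-1). Its partner gene MMS2 lay within the range, with a difference of -0.08. PLB2, a phospholipase B gene, read 10.69 and 10.35 against 7.28, 8.19 and 9.11 (2.38 ± 0.51, adjusted p = 0.357). HPF1, a cell wall mannoprotein gene, read 10.15 and 10.59 against 11.95, 12.95 and 13.78 (-2.56 ± 0.57, adjusted p = 0.368). NUP188, a nuclear pore gene, read 10.86 and 10.68 against 11.65, 12.07 and 12.32 (-1.27, adjusted p = 0.226). VTH1, a vacuolar sorting receptor gene beside PAU14 on chromosome IX, read 10.52 and 10.61, but cdc53-1 read 9.43 and 10.02, so its difference of 5.001 ± 2.41 came with a wide spread (adjusted p = 0.915).

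Among genes of histidine, purine and arginine synthesis, HIS3 and ARG1 passed the test as lower in skp1-11. The counts of differences under 0 given for these lists stand beside 2674 of 5449 over all genes. HIS3 and ADE2 are common auxotrophic markers of laboratory strains, but the sources used here do not give the genotypes at these loci. HIS3, an enzyme gene of histidine synthesis, read 9.52 and 9.83 in skp1-11 against 12.20, 12.59 and 13.16 elsewhere. Its difference was -2.95 ± 0.26 (adjusted p = 0.0263; 0.0759 without cdc53-1, 0.0715 without cdc34-3 and 0.0884 without skp1-25). Of the 7 histidine genes measured, 5 lay below the range and all 7 differences were under 0, with a median of -0.44. HIS4 (-0.88), HIS5 (-0.83), HIS7 (-0.44) and HIS1 (-0.23) were also below, with adjusted p from 0.330 to 0.970, and HIS1 by a gap of 0.013.

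ADE2, of purine synthesis, read 9.69 and 10.82 in skp1-11 against 11.79, 12.77 and 12.95 (-2.32 ± 0.32, adjusted p = 0.125). Of 19 purine genes measured, 4 lay below the range and 1 above it, and 16 differences were under 0, with a median of -0.30. The others below were ADE8 (-1.18), ADE13 (-0.73) and ADE6 (-0.30), and the gene above was PHO2 (0.30), a transcription factor shared with phosphate genes. The purine median of skp1-25 against its 4 other strains was -0.15, and skp1-25 was the nearest strain for ADE2, ADE8 and ADE13.

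Of the 10 arginine synthesis and breakdown genes measured, 4 lay below the range, 10 of 10 differences were under 0, and the median was -0.54. The differences of CAR1 (-0.04) and CAR2 (-0.004) were under 0 by little. The median was 0.82 in cdc4-3, 0.30 in skp1-25, -0.08 in cdc53-1 and -0.07 in cdc34-3, each set against its 4 other strains. These comparisons share arrays. ARG1, for argininosuccinate synthase, read 11.52 and 9.86 in skp1-11 against 12.95, 13.38 and 13.89 (-2.68 ± 0.25, adjusted p = 0.0303; 0.0583 without cdc53-1, 0.114 without cdc34-3 and 0.131 without skp1-25). ARG3, for ornithine carbamoyltransferase, read 9.30 and 8.49 against 11.70, 12.49 and 13.25 (-3.59 ± 0.43, adjusted p = 0.0764, and 0.0256 without cdc4-3). ARG8 read 10.78 and 10.59 against 11.66, 12.39 and 12.90 (-1.67 ± 0.34, adjusted p = 0.328), and ARG7 differed by -0.92 (adjusted p = 0.909). Of these, ARG1 alone passed the test with all strains. For lysine and branched-chain synthesis 3 of 18 genes lay below, all of them lysine genes (LYS2, LYS12 and LYS21), at differences from -0.45 to -0.37.

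URA3, the pyrimidine synthesis gene used as a marker, went the other way. It read 13.30 and 12.85 in skp1-11 against 9.37, 11.41 and 11.97 elsewhere, a difference of 2.02 ± 0.76 (adjusted p = 0.781), and the 4 other strains themselves spread widely. No other of the 13 pyrimidine genes was outside the range, and their median was 0.05. Of the 7 marker genes measured, LEU2 (0.26), MET17 (0.11) and CAN1 (-0.63) lay within the range.

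SNO1 and SNZ1, divergent neighbours that make vitamin B6, lay low together on chromosome XIII. SNO1 read 9.15 and 8.78 in skp1-11 against 11.19, 11.92 and 12.69, and SNZ1 read 10.99 and 11.26 against 12.99, 13.34 and 13.99. Their differences of -2.95 ± 0.46 and -2.31 ± 0.30 did not pass (adjusted p = 0.176 and 0.0983). The gene next to them, CTF13, was below the range by a gap of 0.23. Their copies SNO3 and SNZ3 lay within the range with differences of 0.73 and 0.46.

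**Figure D4:**
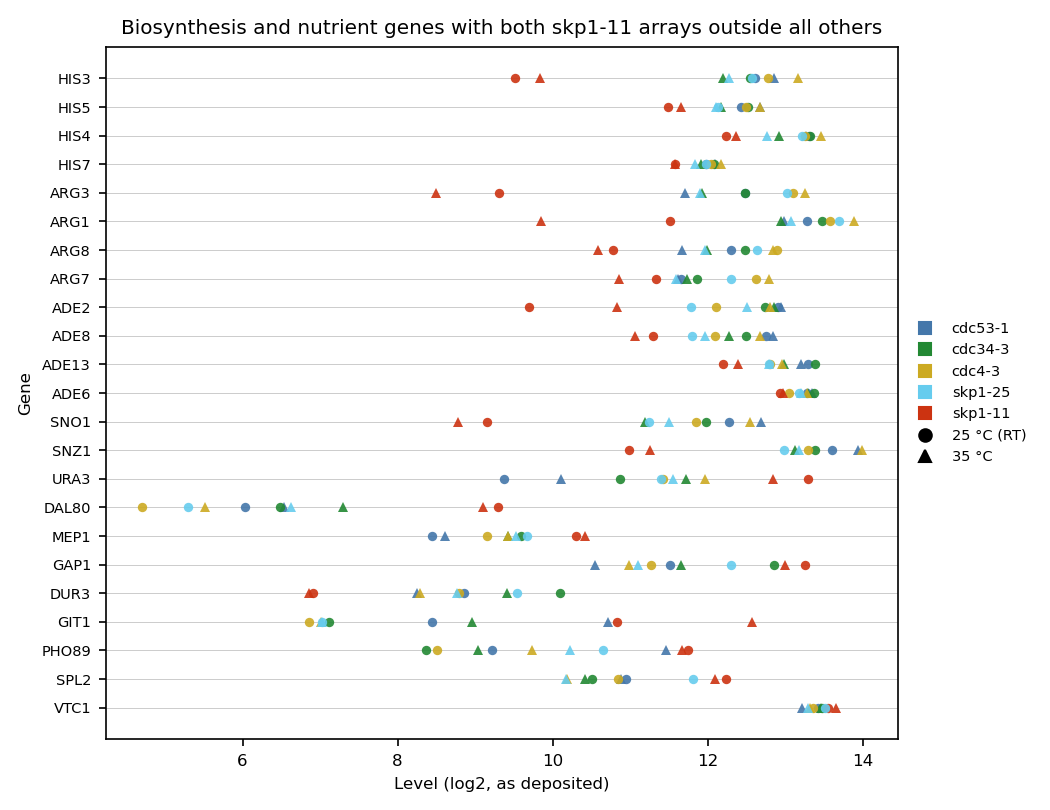
Level (log2) on each array for biosynthesis and nutrient genes outside the range, with skp1-11 and the other strains marked separately at each temperature. The skp1-11 points stand below all others for the HIS, ARG and ADE genes shown, SNO1, SNZ1 and DUR3, with HIS3 at 9.52 and 9.83, and above all others for URA3, DAL80, MEP1, GAP1, GIT1, PHO89, SPL2 and VTC1, with DAL80 at 9.29 and 9.10.

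Genes of nitrogen, phosphate and iron supply had members outside the range, and none of them passed the test. DAL80, a GATA repressor of nitrogen genes, read 9.29 and 9.10 in skp1-11 against 4.70, 6.26 and 7.29 (3.14 ± 0.64, adjusted p = 0.328). The permease gene GAP1 read 13.26 and 12.99 against 10.54, 11.39 and 12.86 (1.60 ± 0.50, adjusted p = 0.660). The ammonium transporter genes MEP1 and MEP2 differed by 1.13 and 1.61. The gaps were 0.135 for GAP1, 0.636 for MEP1 and 0.017 for MEP2. DUR3, a urea and polyamine transporter gene, was on the other side at 6.91 and 6.86 against 8.26, 8.82 and 10.09 (-2.12 ± 0.50, adjusted p = 0.426). DAL5 was also below, by a gap of 0.022. In all, 4 of 22 nitrogen catabolite genes lay above (18.2%) and 2 below (9.09%), and the median was 0.19. Over all genes the shares were 4.02% above and 5.07% below.

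For the phosphate regulon, 7 of 19 genes lay above the range and 0 below, with a median of 0.22. GIT1, a glycerophosphoinositol transporter gene, read 10.83 and 12.57 in skp1-11 against 6.86, 7.07 and 10.72 (3.80 ± 1.05, adjusted p = 0.554). PHO89, a sodium and phosphate cotransporter gene, read 11.74 and 11.67 against 8.36, 9.48 and 11.46 (2.05 ± 0.75, adjusted p = 0.768). In both, the nearest array was the 35 °C array of cdc53-1, and the gap was small. SPL2 (1.44), PHO5 (1.42), VTC2 (0.32), VTC4 (0.25) and VTC1 (0.22) were also above, and the high-affinity transporter gene PHO84 lay within the range (0.11). The gaps were 0.286 for SPL2, 0.025 for PHO5, 0.039 for VTC2, 0.025 for VTC4 and 0.042 for VTC1. For PHO5 the 35 °C array of cdc53-1 read 13.04, against 13.07 and 13.21 in skp1-11.

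Of 25 iron regulon genes, 6 lay below the range (24.0%) and 1 above (4.0%), and 22 differences were under 0, with a median of -0.50. Over all genes, 5.07% lay below the range, 4.02% lay above it, and 2674 of 5449 differences were under 0. ARN2, a siderophore transporter gene, read 9.49 and 9.44 in skp1-11 against 10.07, 10.48 and 12.57 (-1.46 ± 0.79, adjusted p = 0.946). FET4, a low-affinity iron transporter gene, was above at 12.29 and 12.65 against 10.97, 11.67 and 12.04 (0.91 ± 0.16, adjusted p = 0.257). The iron median was -0.50 in cdc53-1 and 0.93 in skp1-25, each set against its 4 other strains, and these comparisons share arrays.

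Other transport genes were mixed. HXT1, the low-affinity glucose transporter gene, read 10.50 and 9.88 in skp1-11 against 11.63, 11.99 and 12.61 (-1.87 ± 0.38, adjusted p = 0.328), and HXT3 differed by -0.28 just below the range. MIG1 (0.53) and RGT1 (0.36), which encode transcription repressors, lay above it by gaps of 0.111 and 0.025. The zinc transporter gene ZRT1 read 12.54 and 12.64 against 10.14, 10.72 and 12.46 (1.68 ± 0.55, adjusted p = 0.705). Among 22 oxidant genes, GPX2 (-1.44), SOD1 (-0.37) and AHP1 (-0.23) lay below, and the list's median was -0.23. The gaps were small, at 0.096 for GPX2, 0.159 for SOD1 and 0.006 for AHP1.

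Of the SCF genes, few stood outside the range. SKP1 read 12.36 and 12.66 in skp1-11, 13.25 and 13.33 in skp1-25, and from 12.51 to 13.33 over the 8 other arrays, with a difference of -0.29 ± 0.30 (adjusted p = 0.999). Of 18 SCF, Rub1 and Skp1 partner genes measured, 1 lay outside, and the list's median was -0.01. That gene was CTF13, a kinetochore F-box protein gene, at 7.15 and 7.55 against 7.77 to 9.28 (-1.04, adjusted p = 0.733). Among 17 F-box protein genes, RCY1, of the recycling pathway, lay above by a small gap (0.30, adjusted p = 0.947). CDC4 (-0.04), MET30 (0.18) and GRR1 (0.37), the F-box genes with the best known substrates, lay within the range.

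The a-specific STE2, the alpha-factor receptor gene, read 12.87 and 12.76 against 6.41 to 13.24 in the other arrays. The alpha-specific MF(ALPHA)1, a pheromone gene, read 5.10 and 5.76 against 3.92 to 5.63, STE3, the a-factor receptor gene, read 6.77 and 8.18 against 5.92 to 8.20, and SAG1, an agglutinin gene, read 10.17 and 9.72 against 9.30 to 10.55. The median difference of the 4 alpha-specific genes was 0.35. None of 7 a-specific, 4 alpha-specific and 10 haploid-specific genes lay outside the range. The medians of 1.36 for the a-specific and 0.92 for the haploid-specific genes went with low values in cdc53-1, where these medians were -4.58 and -3.53.

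Some large groups had no gene outside the range. These were 34 sulfur amino acid genes (median 0.29), 29 genes of the G1/S factors SBF and MBF (0.15), 17 genes of the mitotic CLB2 cluster (-0.08), 9 histone genes (0.005), 36 general stress genes (-0.20), 23 ergosterol genes (0.07) and 28 cell wall genes (0.02). The sulfur median was 0.07 at 25 °C and 0.49 at 35 °C. In the same order, the G1/S median was 0.01 and 0.26, and the general stress median was -0.32 and -0.009. Whether these medians differ between temperatures was not tested. The sulfur median of cdc34-3 against its 4 other strains was 0.40. Of 127 ribosomal protein genes, 2 lay above and 1 below (median -0.01). Of 33 proteasome genes, 2 lay above, RPN1 (0.23) and RPN2 (0.15), with a median of 0.07. Against the 4.02% above and 5.07% below over all genes, the phosphate list had 36.8% above, the histidine list 71.4% below and the arginine list 40.0% below. These are descriptions of short lists of related genes. They count gaps of any size, down to 0.025 in the phosphate list and 0.013 in the histidine list. The shares over all genes also stand beside the counts of the other lists.

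**Figure D5:**
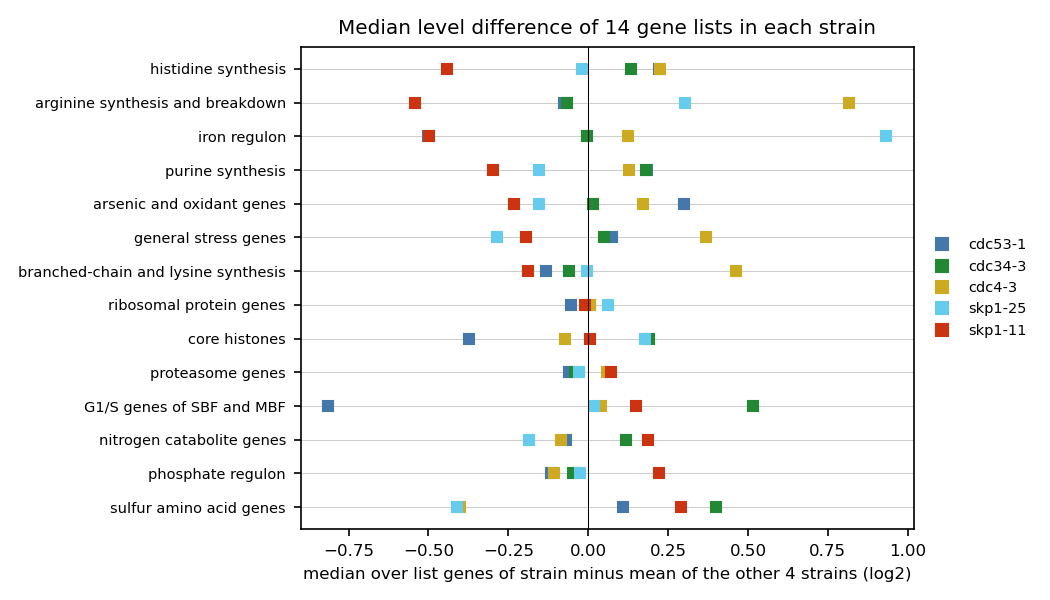
Median difference over the genes of each of 14 lists (log2, horizontal axis) for each strain against the mean of its 4 other strains. For skp1-11 the medians shown run from -0.54 for arginine genes to 0.29 for sulfur amino acid genes, and the iron regulon of skp1-25 lies at 0.93.

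The nearest other strain was skp1-25 for 170 of the 495 genes outside the range (34.3%), against 25.8% of all genes, and cdc53-1 for 135 (27.3%), against 22.6%. For cdc34-3 and cdc4-3 the shares were 19.0% and 19.4%, against 26.3% and 25.4% over all genes. The genes outside were chosen on these same values, and for them the nearest strain is always the outermost one on that side. The shares over all genes lack this limit, so the excess is no measure of likeness between strains and was not tested. At the edge of the rule, ATP25, NMA2 and ARC40 met it with gaps of 0.001 above the other arrays, and for FES1, CHL1 and PUS9 the nearer skp1-11 array equalled the highest other array. On the low side PRP21 and PKP1 met it with gaps of 0.001, and for JNM1, SKP2 and MIR1 the gap was -0.002.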

How the data were processed

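Total RNA from 10 cultures, 1 per strain and temperature, was hybridised to Affymetrix yeast arrays, per the labels. The values deposited by the authors were taken to be log2 expression levels, a base inferred from their range. Which background correction, probe summary and normalization produced them was not stated in the sources read. The table held 5716 probe sets, of which 5498 had 1 gene symbol in the platform annotation and 218 had none. A RefSeq table of assembly R64 updated 12 symbols and gave gene order. The brightest probe set was kept for 47 genes with several, which left 5449 genes, with no filter on low values.

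Strain means of both temperatures entered limma (version 3.58.1, under R 4.3.3; lmFit and eBayes, 3 residual degrees of freedom) as skp1-11 minus the mean of the other 4 strains. The estimate equals that of a fit to 10 arrays with temperature as a block. Adjustment was by Benjamini-Hochberg over all genes, two-sided at 0.05. The difference between temperatures was fitted in the same way on the 5 within-strain changes. The arrays of a strain deviated together from the temperature means (r from 0.428 to 0.768 across genes, and at most 0.185 with another strain), so they were not treated as independent. The comparison was tested on simulated data, in 20 runs that each altered 200 of the 5449 genes. The fit recovered 2.9%, 45.3%, 80% and 94.3% of changes of 0.5, 1, 2 and 4, and 4.91% of calls were false. The simulation drew genes independently and gave skp1-11 the spread of the other strains. These rates hold only under that assumption and are not error rates of the 20 calls. Precision is limited by how few arrays there are.

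The genes and lists were chosen with earlier results of these data known. Named genes were the 15 largest gaps on each side among genes whose higher side exceeded the median gene, up to 4 per list, neighbours of named genes outside the range, and the SCF, mating-type and marker genes. ECM12, GIP1, PDR18, SAK1, YBR013C and YGR126W, IME4, the flanking and related genes, the further list members outside the range, and the genes at the edge of the rule were named after their values were seen. Alternatives were other units of the fit, temperatures, moderation, scalings, probe-set rules, a filter, definitions of the range and leaving out each strain. Unnamed probe sets were kept out of the tests.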

Additional observations from a re-analysis of the deposited data

Results flagged for a closer look

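Of the 218 probe sets without a gene symbol, which entered no test, 7 lay above and 14 below the range of all other arrays in skp1-11 (9.63% in all). Of these, 3 had a gap of at least 1, all on the low side. Probe set 1776828_at read 7.13 and 7.43 in skp1-11 against 9.29 to 12.10 in the 8 other arrays, a gap of 1.86. Probe set 1773061_s_at read 9.61 and 10.11 against 11.65 to 13.79, a gap of 1.54. Probe set 1770455_at read 11.24 and 11.45 against 12.50 to 13.45, a gap of 1.05.

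Among 45 genes checked, 2 had a strain mean that stood apart from the means of the other 3 comparison strains by Dixon's ratio of gap to range. For FSH1 it was cdc53-1, at 12.05 against 12.33 to 12.39 (ratio 0.836). For YNR071C it was cdc4-3, at 7.73 against 7.41 to 7.45 (ratio 0.866). Chance alone marks about 1 in 20 such groups.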

How the results depend on the processing

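With all strains and both temperatures, 6 genes were called higher and 14 lower. A fit to 10 arrays with no strain term called 21 higher and 59 lower, and with strain as a random block 29 were called lower. The 35 °C arrays alone gave 3 higher and 5 lower. Trend and robust moderation gave 3 higher. The filter on low values gave 0 higher and 4 lower, with 213 genes at an unadjusted p below 0.05, since it removed low genes from the test. Leaving out each strain gave 4 to 7 higher and 7 to 13 lower. Of the 20 called genes, 11 remained in every fit that left out a strain, and COS12, GIS3, HXT9, RED1, REE1 and SAK1 remained in every setting in which they were tested. For the 219 genes above and 276 below, the range within each temperature gave 463 and 522, a gap of at least 0.5 gave 21 and 40, a gap of at least 1 gave 8 and 21, and leaving out each strain gave 287 to 338 and 355 to 436. The pyrimidine median was 0.0724 after quantile normalization. The 108 named genes outside the range gave 1374 combinations of a gene and a setting, with 50 losing and 45 gaining a call. None was reversed, but the range rule largely fixes the direction of such genes in advance, so this is no support. Apart from the filter, the definitions of the range and the range counts without a strain, the cause of these changes was not tested. The strain pairs the arrays of both temperatures and is kept in the fit through the strain means, and the labels give no replicate numbers that could serve as a further block. Depth does not apply to arrays, and low levels were not separated from background.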
